A study of Mus musculus with 45 samples.

Results

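A set of 10 genes used as markers of crypt-base intestinal stem cells (ISCs) were followed through RNA-seq libraries of sorted mouse intestinal cells and of intestinal organoids: Olfm4, Ascl2, Smoc2, Slc12a2, Tnfrsf19, Cdca7, Sox9, Rgmb, Prom1 and Msi1. They were taken by gene name, and all 10 were found once in each table of 52636 genes and passed the filter on low values in every comparison. In short, 7 of them were called higher, and 1 lower, in sorted cells at E18.5 than at E16.5. Olfm4 rose most, and 30.3% of all genes were called higher there. All 10 were higher at 100 than at 5 ng/ml of Rspo1 or Rspo3 in organoids of either genotype. With Rspo2 the 10 differed between doses in wild-type organoids, but 9 of them did not pass the test in Lgr5 knockout organoids. A direct test of this difference between genotypes called 2 of the 10, and 0 when either of 2 wild-type cultures was left out. Without 1 of the 2 knockout cultures (KO2) the log2 difference shrank from -2.97 to -1.91 for Ascl2. For Sox9 it shrank from -1.71 to -1.14. The knockout cultures also differed from each other in their response to Rspo2.

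The 45 libraries comprised 15 of sorted cells and 30 of organoids. Cells of the Lgr5-DTReGFP line, in which a diphtheria toxin receptor-eGFP cassette sits in the Lgr5 locus, were sorted as eGFP+ve. These were 2 E16.5 pools of heterozygous (HE) embryos (7 and 8 embryos) and 2 of homozygous knockout (KO) embryos (2 and 6 embryos) from litters 85 and 97, 2 single E18.5 HE embryos, and the duodenum and ileum of 2 HE adults, mice 71 and 77, 2 months of age. A second line, Lgr5-Cre, carries an eGFP-CreERT2 cassette in Lgr5 and gave eGFP+ve/RFP+ve ileal cells of 2-month-old mice 48 h after 2 mg of tamoxifen, from 2 Lgr5-Cre/+ (HE) and 3 Lgr5-Cre/flox conditional knockout (cKO) mice. Every sorted population therefore carried at least 1 disrupted Lgr5 allele, and eGFP in it was driven by the Lgr5 promoter, so that the sort followed activity of the locus and not the presence of the receptor. Organoids came from E17.5 Lgr5-DTReGFP embryos, with 3 wild-type (WT) cultures (WT10, WT5, WT30) and 2 KO cultures (KO7, KO2), each from 1 embryo and each grown at passage 4 in Rspo1, Rspo2 or Rspo3 at 100 or 5 ng/ml.

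Crypt-base ISCs renew the intestinal epithelium and are maintained by Wnt signalling. R-spondins (Rspo1 to Rspo4) are secreted proteins that bind Lgr4, Lgr5 and Lgr6 and, by drawing the ubiquitin ligases Rnf43 and Znrf3 away from the surface, leave more Wnt receptor in place. Among the markers, Ascl2 and Sox9 are transcription factors and Ascl2 is a direct Wnt target, Tnfrsf19 (Troy) and Rgmb are surface proteins, the latter a coreceptor for bone morphogenetic proteins, Slc12a2 is a sodium-potassium-chloride cotransporter, Prom1 (CD133) a membrane glycoprotein, Olfm4 and Smoc2 are secreted glycoproteins, Msi1 is an RNA-binding protein, and Cdca7 is a chromatin cofactor of cycling cells.

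By the GRCm38 annotation 9 of the genes lie at chr14:79984081-80023139 (Olfm4, plus strand), chr7:142966829-142969264 (Ascl2, minus), chr17:14279506-14404790 (Smoc2, plus), chr14:60963875-61046490 (Tnfrsf19, minus), chr2:72476159-72486893 (Cdca7, plus), chr11:112782224-112787760 (Sox9, plus), chr17:15803188-15831039 (Rgmb, minus), chr5:43993620-44102032 (Prom1, minus) and chr5:115429599-115455698 (Msi1, plus). The merged exons of the 10 span from 1.62 kb in Ascl2 to 10.92 kb in Slc12a2. Genes annotated on the opposite strand overlap Smoc2, Tnfrsf19, Prom1 and Msi1, and the strand setting of the counting is not given in the sources used here. The antisense gene in Msi1, 4930430O22Rik, reached 3.35 CPM in organoids, where Msi1 itself fell as low as 1.35 CPM, so the lowest Msi1 values are uncertain. CPM are read counts of a gene scaled to a common library total.

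Promoters are shown for Olfm4, the marker with the largest log2 dose response to Rspo1 and Rspo3 in wild-type organoids, for the Wnt target Ascl2, and for Tnfrsf19, which fell between the fetal stages while most others rose. RefSeq (GRCm38.p6) had promoter windows, 250 bases before to 50 after a start site, for 6 members, and in their 10 windows the TCF/LEF core hexamers CTTTGA and CTTTGT were searched on both strands. A hexamer was present in 3 of the 10 windows (30%), 1 each of Tnfrsf19, Rgmb and Prom1, against 31.2% of all 32851 windows, so these members held it about as often as promoters at large. The 250 bases before the start are printed 5′ to 3′ on the gene's strand, in lower case with a hexamer in capitals, for Olfm4 (chr14:80000052-80000301), Ascl2 (chr7:142969265-142969514) and the Tnfrsf19 window that held one (chr14:61037988-61038237, hexamer beginning 201 bases before the start).
Olfm4: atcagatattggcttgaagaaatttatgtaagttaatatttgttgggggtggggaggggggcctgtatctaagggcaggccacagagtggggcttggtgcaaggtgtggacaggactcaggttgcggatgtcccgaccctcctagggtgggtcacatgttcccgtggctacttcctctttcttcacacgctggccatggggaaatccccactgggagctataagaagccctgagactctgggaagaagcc
Ascl2: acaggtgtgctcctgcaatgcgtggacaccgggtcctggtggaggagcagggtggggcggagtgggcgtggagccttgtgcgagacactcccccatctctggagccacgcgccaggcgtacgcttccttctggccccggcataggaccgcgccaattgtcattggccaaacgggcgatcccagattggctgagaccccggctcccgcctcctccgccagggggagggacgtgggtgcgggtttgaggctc
Tnfrsf19: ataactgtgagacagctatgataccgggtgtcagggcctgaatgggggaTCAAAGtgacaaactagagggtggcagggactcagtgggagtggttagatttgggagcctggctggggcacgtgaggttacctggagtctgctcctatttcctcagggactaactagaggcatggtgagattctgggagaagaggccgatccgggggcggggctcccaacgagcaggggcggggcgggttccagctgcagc

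Several facts of the libraries bear on what follows. Depth, read from the spacing of the lowest CPM values, was 1276051 to 9980518 reads in sorted cells and about 19486450 to 33105829 in organoids, so that 1 read was worth at most 0.784 CPM and 0.0513 CPM respectively. Among the sorted libraries, summed CPM of 10 mesenchymal genes was 865 to 1855 in E16.5 HE, 193 to 527 in E16.5 KO, 87.0 to 88.8 at E18.5 and 8.15 to 60.6 in all adult groups. Summed CPM of 8 immune genes was 1494 to 3146 in adult Lgr5-DTReGFP cells and at most 82.5 in every other sorted group. Paneth genes (8 in the list) summed to 89.0 to 93.4 in E16.5 HE, 143 to 272 in E16.5 KO, 149 to 155 at E18.5 and 2771 to 32457 in adults. Fewer cells of a type and less RNA per cell cannot be told apart in such bulk samples. A supplementary dataset of the study gives 2 of the Lgr5-Cre libraries the other genotype, the one labelled HE replicate 1 being cKO there and the one labelled cKO replicate 2 being HE, so results on cKO are given by label and by that dataset. The sexes also differed from genotype to genotype: Xist was 1030 to 3926 CPM in WT and at most 213 CPM in KO organoids, Ddx3y was at most 0.45 CPM in WT and at least 55.0 CPM in KO, and by label both Lgr5-Cre HE libraries had Ddx3y (47.3 and 72.9 CPM) while the 3 cKO had Xist (1162 to 1551 CPM). Sex and genotype cannot be told apart in those comparisons. In the E16.5 pools Xist was 1.55 and 1224 CPM in KO and 1104 and 639 CPM in HE, and every pool had Ddx3y. At E18.5, embryo 1 had Ddx3y (74.3 CPM) and embryo 2 had Xist (5175 CPM). The adult Lgr5-DTReGFP libraries all had Ddx3y (85.1 to 94.35 CPM) and little Xist. Comparisons of these groups were thus not balanced for sex, and its part was not tested. Nothing says that the organoid libraries of a culture were independent of each other, and p-values measure only the spread between these samples. Where groups are said not to overlap, the share of all genes that did so was not computed. With 2 or 3 samples a group, non-overlap is not read as a result about the markers.

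The first question was what changes between fetal stages. Sorted HE cells at E18.5 had far more Olfm4, Smoc2 and other markers than at E16.5, and far less Tnfrsf19. Of the 10 markers, 7 were called higher and 1 lower (limma, false discovery rate (FDR) under 0.1 and fold above 1.5) in a comparison in which 49.6% of all genes tested were called, 30.3% as higher and 19.4% as lower. The median log2 fold change was 1.16 over the markers and 0.23 over all genes.

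The E16.5 HE pools had 152 and 164 CPM of Olfm4, and the E18.5 embryos had 1941 and 1842 CPM. The stages were wide apart, by 3.57 ± 0.10 on the log2 scale (SE, adjusted p = 3.28e-05, limma). Smoc2 was at 35.3 and 33.8 CPM at E16.5 and at 165 and 176 CPM at E18.5, a log2 fold change of 2.27 ± 0.12 (adjusted p = 0.00016, limma). Msi1 rose by 1.34 ± 0.20, Cdca7 by 1.22 ± 0.17, Rgmb by 1.17 ± 0.30, Slc12a2 by 1.15 ± 0.11 and Ascl2 by 1.03 ± 0.23 (log2, SE), all with adjusted p of 0.0214 or less (limma). In CPM, Ascl2 went from 8.65 and 9.10 to 20.6 and 17.8, and Rgmb, the noisiest of these, from 10.2 and 6.10 to 20.8 and 17.4. Sox9, at 140 and 125 CPM against 138 and 147 CPM, did not pass the test (0.11 ± 0.11, adjusted p = 0.446, limma), with an estimate just below 0 after TMM scaling, and Prom1, at 51.8 and 58.6 against 79.6 and 81.7 CPM, passed the FDR but not the fold limit (0.54 ± 0.13).

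Tnfrsf19 alone among the markers fell. It was at 17.3 and 17.7 CPM in HE at E16.5, against 1.40 and 2.20 CPM at E18.5, a log2 fold change of -2.74 ± 0.32 (adjusted p = 0.00139, limma). All 10 mesenchymal genes were also lower at E18.5 (median log2 fold change -3.48). All 5 endothelial genes (-2.42), 4 of 5 erythroid genes (-3.69) and 4 of 6 immune genes (-1.47) were lower as well, and 5 of 7 general epithelial genes (0.71) were higher, along with the 7 markers that rose. The part of those shifts in the markers' values was not tested. Other crypt-base genes moved in both directions, 10 of 18 tested higher and 2 lower, led by Fstl1 (-4.23 ± 0.40) and Aqp1 (2.81 ± 0.14). Of the 12 proliferation genes 2 were higher and 2 lower (Pcna -1.10 ± 0.18 and Rrm2 -0.89 ± 0.14), and of 4 genes used for reserve stem cells 2 were higher and 2 lower (Hopx -1.88 ± 0.11 and Lrig1 1.34 ± 0.12). Leaving out either E18.5 embryo left 0 of the 10 markers and no gene of the table called, with log2 fold changes of Olfm4 of 3.53 and 3.61.

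**Figure D1:**
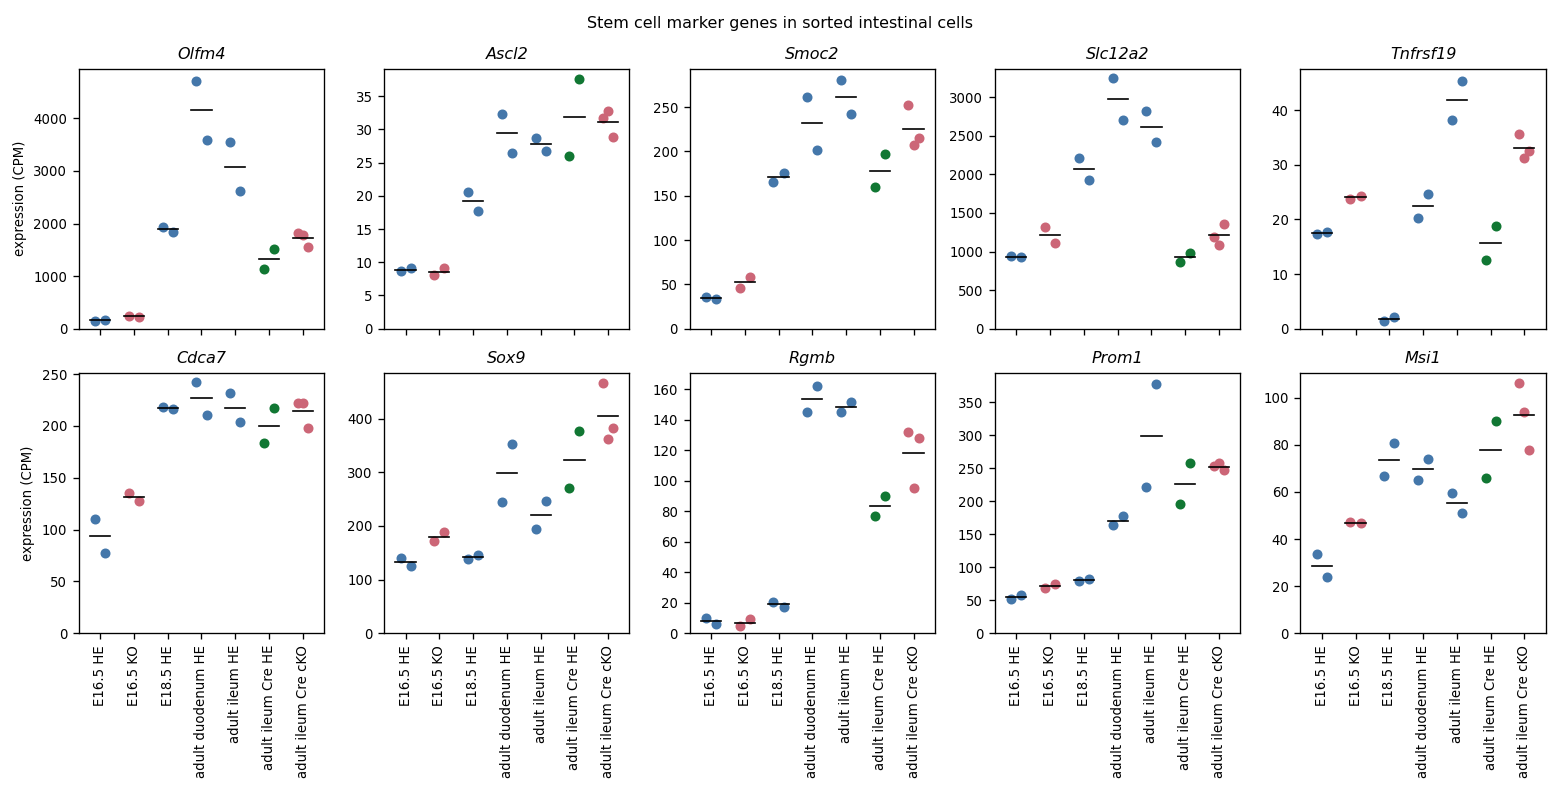
Expression of the 10 markers in sorted cells in CPM (vertical axes from 0) by group, 1 point per library, with group means as lines. Olfm4 steps up at each stage in Lgr5-DTReGFP HE cells, whereas Tnfrsf19 is lowest at E18.5, at 1.40 and 2.20 CPM.

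Between E18.5 and the adult in Lgr5-DTReGFP cells, 5 markers were higher and none lower (n = 2 mice and 2 embryos). The 2 gut regions of each mouse were averaged. Here 26.3% of all genes were called, 13.7% as higher. Tnfrsf19, the marker that fell before birth, came back, at 20.2 and 24.7 CPM in duodenum and 38.2 and 45.4 CPM in ileum, which was 3.51 ± 0.23 above E18.5 on the log2 scale (adjusted p = 1.04e-05, limma). Rgmb was at 145 to 163 CPM in the 4 adult libraries against 20.8 and 17.4 CPM, a log2 fold change of 2.93 ± 0.13 (adjusted p = 1.1e-06, limma).

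Prom1 followed at 1.45 ± 0.14, Olfm4 at 0.90 ± 0.15 and Sox9 at 0.83 ± 0.14 (log2, SE, adjusted p of 0.00248 or less, limma). Olfm4 reached 2612 to 4716 CPM in the Lgr5-DTReGFP adults, above both E18.5 embryos in each library. In the Lgr5-Cre ileum after tamoxifen it was at 1136 to 1523 CPM in HE and 1552 to 1821 CPM in cKO by label, below both embryos. Ascl2 (0.55 ± 0.16), Smoc2 (0.52 ± 0.12) and Slc12a2 (0.43 ± 0.13) passed the FDR but stayed under 1.5-fold, while Cdca7 (0.03 ± 0.10) and Msi1 (-0.24 ± 0.13) did not pass. Without either E18.5 embryo 3 markers were called. In the same comparison 7 of 19 other crypt-base genes were higher and 2 lower, with Ephb3 (3.47 ± 0.13), a receptor of crypt cell positioning, and Nkd1 (2.47 ± 0.39) at the top, and 7 of 12 proliferation genes were lower, led by Rrm2 (-1.31 ± 0.14) and Ccnb1 (-1.09 ± 0.14). Of the reserve genes, 2 were higher and 1 lower, led by Tert (-1.90 ± 0.15) and Lrig1 (1.29 ± 0.13). All 8 Paneth, all 7 goblet and all 5 tuft cell genes were higher and 8 of 9 enterocyte genes lower, and their part in the markers' differences was not tested.

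Along the gut, the adult markers differed little. Only Tnfrsf19 was called, higher in ileum in both mice, 38.2 against 20.2 CPM in mouse 71 and 45.4 against 24.7 CPM in mouse 77 (log2 fold change 0.87 ± 0.20, adjusted p = 0.0634, limma), against 6.88% of all genes called and 2.24% called as higher. The call was lost when the duodenum of mouse 71 (adjusted p = 0.446), the duodenum of mouse 77 (0.472), the ileum of mouse 71 (0.167) or the ileum of mouse 77 (0.318) was left out, with log2 fold changes between 0.73 and 1.01. Prom1, at 221 and 378 CPM in ileum and 164 and 177 CPM in duodenum, was called in addition when the mouse was a block (0.76, adjusted p = 0.0210, limma with mouse as block). The block took the count over all genes from 1280 to 2065. Olfm4 was lower in the ileum of each mouse (3548 against 4716 and 2612 against 3592 CPM) but did not pass (-0.43 ± 0.26). Of the other crypt-base genes 1 of 18 was called, Esrrg (-2.29 ± 0.20), and none of the reserve or proliferation genes. All 5 tuft cell genes and 8 of 9 enterocyte genes were lower in ileum, and their part in these values was not tested.

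Loss of Lgr5 in the fetus was examined at E16.5. Lgr5 itself, counted over the whole gene, was at 64.8 and 51.7 CPM in KO against 104 and 125 CPM in HE pools (log2 fold change -0.97 ± 0.18, adjusted p = 0.0795, limma). The knock-in locus is still transcribed in the KO, so this count does not measure receptor. None of the 10 markers was called (limma), against 0.527% of all genes. Of the 10, 8 had a positive log2 fold change (median 0.44, all genes 0.08). An unadjusted p under 0.05 (limma) was found for 6 of the 10 and for 2354 of all 17276 genes tested. On reads recovered from the CPM steps edgeR also called 0 of the 10.

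Olfm4 was at 247 and 230 CPM in KO and 152 and 164 CPM in HE pools, and Msi1 at 47.2 and 46.9 against 33.8 and 23.8 CPM. The groups did not overlap for either gene. Their log2 fold changes were 0.59 ± 0.14 (adjusted p = 0.124) and 0.71 ± 0.22 (adjusted p = 0.222, limma). With litter as a block both were called (adjusted p = 0.00814 for Olfm4 and 0.0530 for Msi1, limma), 2 markers in place of 0, while the count over all genes went from 91 to 830. Smoc2 (0.58 ± 0.20), Cdca7 (0.50 ± 0.18), Sox9 (0.45 ± 0.14), Tnfrsf19 (0.44 ± 0.25), Prom1 (0.38 ± 0.17) and Slc12a2 (0.37 ± 0.14) did not pass. Neither KO pool fell within the HE range for any of them, but how many of all genes separated so was not computed. Ascl2 (-0.04 ± 0.35) and Rgmb (-0.24 ± 0.44) overlapped between genotypes. Among 18 other crypt-base genes, Axin2, a feedback inhibitor and target of Wnt signalling, was called higher (0.92 ± 0.17, adjusted p = 0.0795, limma) and Lgr5 lower, and no reserve or proliferation gene was called. Of genes of other cell types, 5 of 9 enterocyte genes (median -1.07), 3 of 5 erythroid genes (median -1.52) and 1 of 10 mesenchymal genes (median -1.75) were called lower in KO, 1 of 7 goblet genes was called higher (median 0.70), and Paneth genes had a median of 1.08 with 0 of 7 called. Their part in the markers' values was not tested.

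Acute loss in the adult gave no call either. By the labels, Lgr5 counts over the gene were 52.8 and 87.6 CPM in Lgr5-Cre HE and 89.2, 109 and 90.7 CPM in cKO, and they do not check the deletion of a single exon. Of the 10 markers 0 were called with limma, against 0.0504% of all genes. By label 3 had an unadjusted p under 0.05, against 902 of all 19848 genes tested. With the genotypes of the supplementary dataset 0 markers were again called where 779 genes were, in place of 10 by label, and without the 2 libraries in question 0 markers and 53 genes. Libraries that the dataset calls cKO had 61.0% to 80.1% of genes above 0, at 8122435 to 9980518 reads. Those it calls HE had 43.1% and 47.4%, at 3084702 and 5717205 reads. The part of depth and of genes detected in the calls by that dataset was not tested. Tnfrsf19 had the largest log2 fold change of the 10 by label (1.05 ± 0.21, adjusted p = 0.864, limma). It was at 12.6 and 18.9 CPM in HE and 35.6, 31.2 and 32.6 CPM in cKO. By label the groups did not overlap for it, nor for Olfm4, Smoc2, Slc12a2 and Rgmb. By that dataset the log2 fold change of Tnfrsf19 was 0.02 (adjusted p = 0.985, limma), and without the 2 libraries in question it was 0.82. Olfm4 went from 0.38 ± 0.16 by label to -0.16 by the dataset, so no direction can be given for it. Mesenchymal genes summed to 22.1 to 28.2 CPM in HE and 28.6 to 60.6 CPM in cKO by label, and their part was not tested. The 19 other crypt-base, 4 reserve and 12 proliferation genes tested also had 0 called.

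In organoids the question was how the markers respond to the type and dose of R-spondin, and whether that depends on Lgr5. In WT organoids each of the 10 markers was higher at 100 than at 5 ng/ml with each ligand (limma on 12 groups, FDR under 0.05). The groups did not overlap and every one of the 3 cultures showed the rise, but the share of all genes doing so was not computed. Calls as higher took 40.9% of all genes with Rspo1, 24.3% with Rspo2 and 37.8% with Rspo3. The median log2 fold changes of the markers were 2.55, 2.39 and 2.65, and those of all genes 0.28, 0.17 and 0.24. TMM scaling moved the latter by -0.28, -0.20 and -0.19, and 29 of the 30 marker calls in WT passed with it. As ratios of mean CPM, the medians over the markers were 6.13, 5.29 and 9.63.

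On the log2(CPM + 1) scale Olfm4 had the largest response to Rspo1 and Rspo3, whereas the ratio of mean CPM with Rspo1 was larger for Tnfrsf19 (62.6) and Ascl2 (36.3) than for Olfm4 (18.3). With Rspo1 it was at 51.2, 37.9 and 25.1 CPM at 5 ng/ml and at 694, 833 and 559 CPM at 100 ng/ml in WT10, WT5 and WT30 (log2 fold change 4.20 ± 0.55, adjusted p = 2.5e-06, limma). With Rspo3 it was at 2.80, 6.80 and 1.5 CPM at 5 ng/ml and at 411, 339 and 242 CPM at 100 ng/ml (6.27 ± 0.55, adjusted p = 6.82e-09, limma). Olfm4 was thus nearly absent at the low Rspo3 dose and an abundant transcript at the high one. Ascl2 and Tnfrsf19 were close to the limit of detection at 5 ng/ml of Rspo1 or Rspo3. Ascl2 did not exceed 0.50 CPM there in WT and was at 5.90 to 23.5 CPM at 100 ng/ml. Tnfrsf19 did not exceed 0.35 CPM there, and was at 8.55 to 15.4 CPM with 100 ng/ml of Rspo1 and at 3.70 to 6.90 CPM with 100 ng/ml of Rspo3. For both genes the log2(CPM + 1) scale understates the fold. Prom1 had the smallest log2 response to Rspo2, Smoc2 to Rspo1 and Rgmb to Rspo3 (1.39 ± 0.29). Prom1 ranged from 0.76 ± 0.21 with Rspo2 to 1.80 ± 0.21 with Rspo3, and Smoc2 ranged from 1.32 ± 0.29 with Rspo1 to 2.08 ± 0.29 with Rspo3.

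The markers moved with a wider set of genes. Among 19 other crypt-base genes 17, 18 and 16 were higher at 100 ng/ml of Rspo1, Rspo2 and Rspo3 and none lower, with Lgr5 (4.49 ± 0.49, 4.52 ± 0.49 and 5.01 ± 0.49) among the top pair each time, beside Axin2 for Rspo1 (3.91 ± 0.53) and Rspo3 (4.78 ± 0.53) and Sp5 for Rspo2 (4.71 ± 0.42). Proliferation genes were higher in 12, 5 and 12 of 12 cases, led by Mcm2 (2.27 ± 0.23) and Uhrf1 (2.18 ± 0.25) with Rspo1, Mcm2 (1.14 ± 0.23) and Mcm5 (1.02 ± 0.24) with Rspo2, and Uhrf1 (3.59 ± 0.25) and Mcm5 (3.58 ± 0.24) with Rspo3. Of 4 reserve genes 2 were higher with each ligand, Lrig1 and Bmi1 with Rspo1 (1.13 ± 0.17 and 1.06 ± 0.16) and Rspo3 (1.01 ± 0.17 and 1.13 ± 0.16) and Hopx and Lrig1 with Rspo2 (1.53 ± 0.29 and 1.41 ± 0.17). Paneth genes were higher in 7, 7 and 6 of 8 cases and enterocyte genes lower in 6, 5 and 6 of 9. The part of these shifts in cell make-up in the marker values was not tested.

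**Figure D2:**
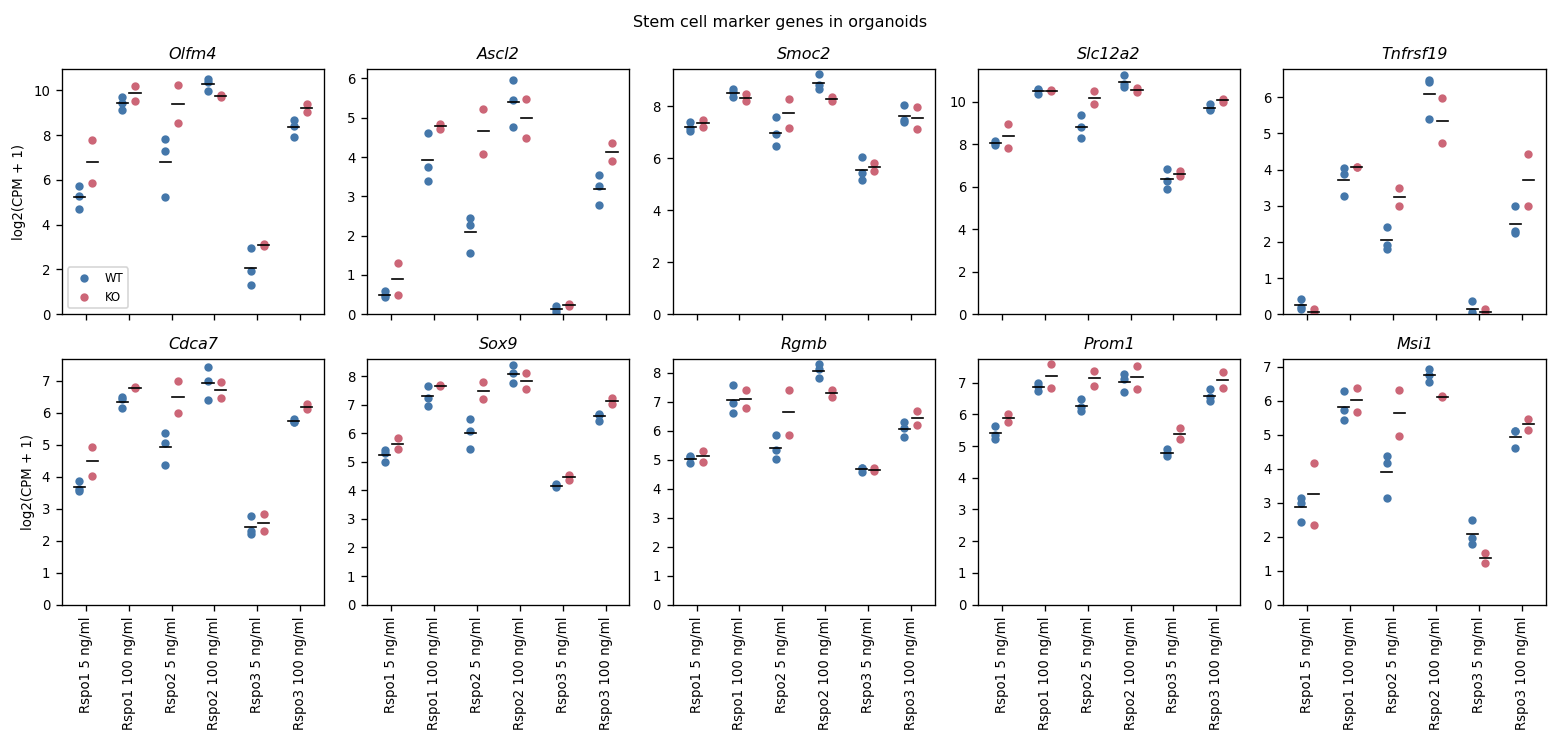
Expression of the 10 markers in organoids as log2(CPM + 1) by ligand and dose, 1 point per culture (3 WT, 2 KO), with group means as lines. The 5 ng/ml groups of Rspo3 lie lowest for most markers. With 5 ng/ml of Rspo2 the 2 KO points of Olfm4 lie at 376 and 1201 CPM, against 834 and 878 CPM at 100 ng/ml.

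In KO organoids the markers rose with the dose of Rspo1 and Rspo3, with median log2 fold changes of 2.22 and 3.54, and the median with Rspo2 was 0.36. All 10 markers were higher at 100 ng/ml with Rspo1 (21.9% of all genes called as higher) and with Rspo3 (32.7%). The groups did not overlap for any of them, a trait whose share over all genes was not computed. Olfm4, for example, was at 56.9 and 219 CPM with 5 ng/ml of Rspo1 and at 742 and 1161 CPM with 100 ng/ml in KO7 and KO2 (3.04 ± 0.67), and at 7.20 and 7.85 against 517 and 667 CPM with Rspo3 (6.11 ± 0.67, adjusted p of 0.00191 or less, limma). With Rspo2 only Tnfrsf19 was called, at 6.90 and 10.3 CPM against 62.1 and 25.4 CPM (2.11 ± 0.42, adjusted p = 0.0487, limma), in a comparison in which 0.115% of all genes were called. That call was lost under other settings, among them leaving out KO7 (log2 fold change 1.22, adjusted p = 1) or any WT culture (adjusted p of 0.116 to 0.195). The other 9 markers had log2 fold changes of 0.03 to 0.65, and the median ratio of mean CPM over the 10 was 1.26.

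The KO cultures differed from each other with Rspo2. In KO7 all 10 markers were higher at 100 ng/ml, Olfm4 at 878 against 376 CPM and Ascl2 at 43.7 against 16.0 CPM. In KO2 only 3 of the 10 were higher at 100 ng/ml (Smoc2, Tnfrsf19 and Rgmb), while Olfm4 was at 834 against 1201 CPM, Ascl2 at 21.4 against 36.3 CPM and Sox9 at 189 against 220 CPM. Lgr5 showed the same split, at 104 against 20.6 CPM in KO7 and at 75.0 against 90.5 CPM in KO2.

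The difference between genotypes in the dose effect was tested directly. With Rspo2 all 10 estimates were negative, that is, a smaller rise in KO, with a median of -1.87 (all genes -0.12), and 2 were called, Ascl2 (-2.97 ± 0.55, adjusted p = 0.0169) and Sox9 (-1.71 ± 0.35, adjusted p = 0.0281, limma), against 0.413% of all genes called as lower. With culture as a block 9 markers were called, all but Prom1, while the count over all genes went from 84 to 761, and without KO2 no marker was called (Ascl2 -1.91, adjusted p = 0.769). Without WT10 (Ascl2 -2.78, adjusted p = 0.281) or WT30 (-2.67, adjusted p = 0.234) none was called either, while 5 were called without WT5 (144 of all genes) and 8 without KO7 (477 of all genes). Of 19 other crypt-base genes 7 were called lower, led by Lgr5 (-3.51 ± 0.78) and Sp5 (-3.21 ± 0.67). With Rspo1 and Rspo3 no marker and 0 genes of the table were called, with medians over the markers of -0.17 and 0.28. At an unadjusted p under 0.05 these contrasts held 0 and 1 of the 10 markers, against 516 and 430 of all 19130 genes.

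**Figure D3:**
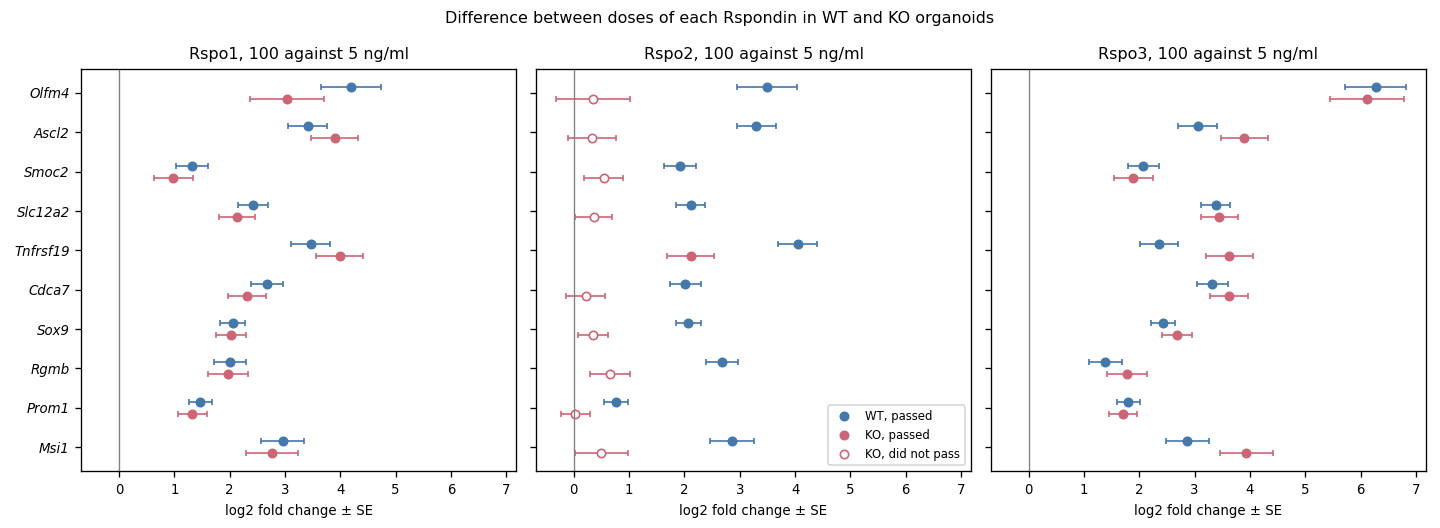
Log2 fold change (log2(CPM + 1) scale) between 100 and 5 ng/ml of each ligand, with SE, in WT (3 cultures) and KO (2 cultures) organoids. Open points did not pass an FDR of 0.05, which was the case for 9 of 10 markers in KO with Rspo2.

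Set side by side, genotypes differed in 1 of 6 conditions. Lgr5 counts over the gene were lower in KO than in every WT culture at 100 ng/ml of Rspo2 (104 and 75.0 against 379, 247 and 458 CPM). They did not pass there (-1.97 ± 0.55, adjusted p = 0.0874, limma), nor in the other conditions. With 5 ng/ml of Rspo2 the Lgr5 estimate had the other sign (1.54 ± 0.55, adjusted p = 0.104, limma). Its values there were 20.6 and 90.5 CPM in KO against 6.10 to 28.7 CPM in WT. At 5 ng/ml of Rspo2, 8 markers were called higher in KO, all but Smoc2 and Tnfrsf19, where 3.18% of all genes were called as higher and 4.54% in all. The median of the 10 was 1.42 against 0.09 over all genes.

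Ascl2 differed most clearly, at 16.0 and 36.3 CPM in KO7 and KO2 against 3.85, 4.45 and 1.95 CPM in WT10, WT5 and WT30 (2.56 ± 0.39, adjusted p = 0.000826, limma). Olfm4 was at 376 and 1201 CPM against 155, 227 and 36.2 CPM (2.61 ± 0.61, adjusted p = 0.0189), and Msi1 at 29.9 and 77.8 against 16.9, 19.8 and 7.85 CPM (1.73 ± 0.44, adjusted p = 0.0269, limma). Each KO culture was above each WT culture for every marker but Smoc2 (144 and 310 CPM in KO, up to 189 CPM in WT). For Rgmb the gap was narrow, 56.65 CPM in the lower KO culture against 56.1 CPM in the highest WT culture. How many of all genes separated so was not computed. Cdca7 (1.58 ± 0.32), Sox9 (1.47 ± 0.25), Slc12a2 (1.36 ± 0.30), Rgmb (1.23 ± 0.33) and Prom1 (0.87 ± 0.23) were also called, Smoc2 (0.75 ± 0.32) and Tnfrsf19 (1.20 ± 0.39) were not. Of the other crypt-base genes 12 of 19 were higher, led by Axin2 (2.62 ± 0.59) and Sp5 (2.53 ± 0.47), 1 of 12 proliferation genes (Mcm2, 1.00 ± 0.26) and 0 of 4 reserve genes. Paneth genes were higher in 3 of 8 cases, and their part was not tested.

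The 8 calls at 5 ng/ml of Rspo2 rested on few cultures. Ascl2 and Sox9 alone were called there without WT10 or without WT30, and Ascl2, Sox9 and Prom1 without KO2, where Tnfrsf19 was called at 100 ng/ml of Rspo3 instead (adjusted p = 0.0103, limma). Without WT5 7 were called, all of the 8 but Prom1, and without KO7 9, with Smoc2 and Tnfrsf19 gained and Prom1 lost. No marker was called when each condition was fitted with its own libraries only (adjusted p = 0.0696 for Ascl2). In the other 5 conditions no marker was called, against 0.214% and 0.125% of all genes with 100 and 5 ng/ml of Rspo1, 1.2% with 100 ng/ml of Rspo2 and 0.868% and 0.193% with 100 and 5 ng/ml of Rspo3. An unadjusted p under 0.05 (limma) was found in each for 1 to 4 of the 10 and for 1033 to 2346 of all 19130 genes. There the SE of a difference was 0.23 to 0.61 on the log2 scale, and the estimates lay between -0.79 and 1.59.

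**Figure D4:**
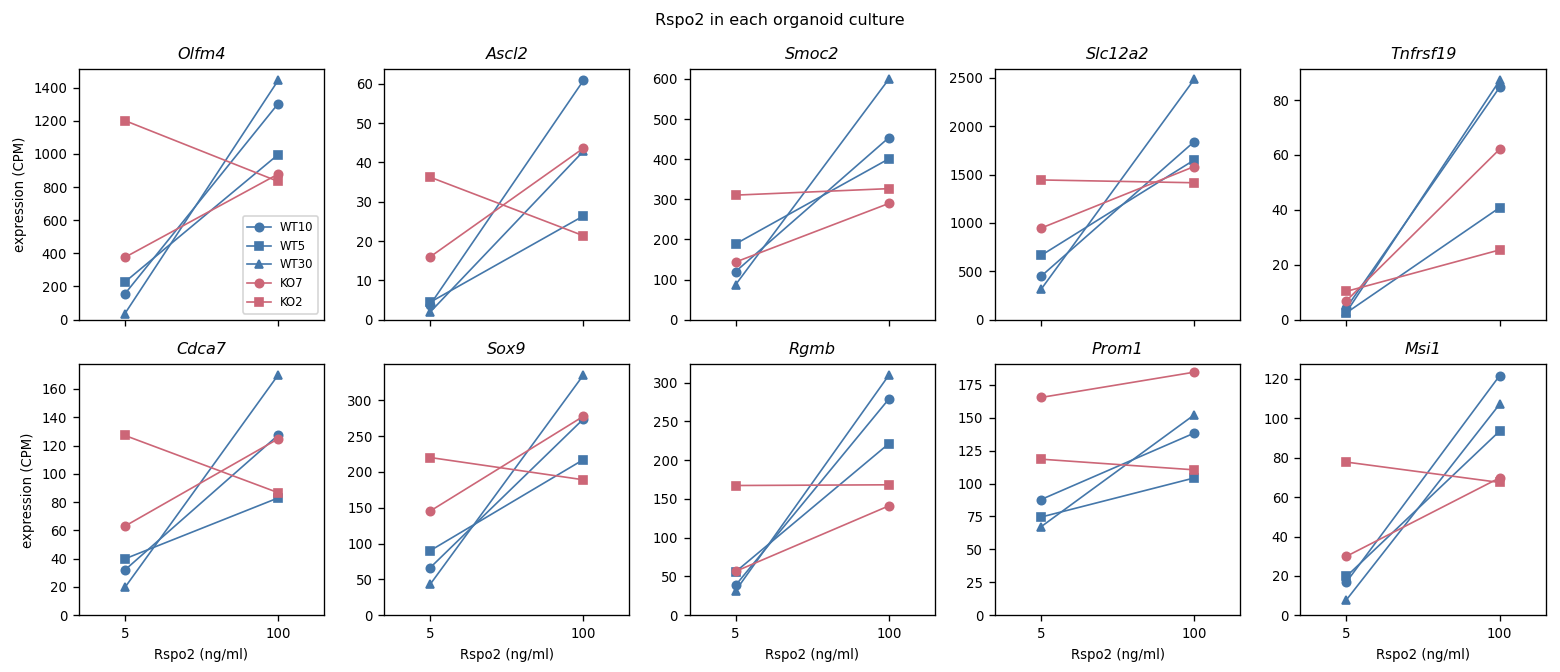
Expression of the 10 markers in CPM (vertical axes from 0) at 5 and 100 ng/ml of Rspo2, with 1 line per culture. All WT lines rise, while KO2 is as high at 5 as at 100 ng/ml for most markers, for example Olfm4 at 1201 and 834 CPM.

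Ligands were also compared with each other at the same dose. In WT organoids at 100 ng/ml, 9 markers were lower with Rspo3 than with Rspo2, all but Prom1 (-0.44 ± 0.21), against 9.04% of all genes called as lower. Tnfrsf19 showed the widest gap, at 84.7, 40.8 and 87.2 CPM with Rspo2 and 6.90, 3.70 and 3.95 CPM with Rspo3 (-3.58 ± 0.35, adjusted p = 2.4e-06, limma). It was also the 1 marker called between Rspo2 and Rspo1 at this dose (2.37 ± 0.35, adjusted p = 0.00268, limma, 0.188% of all genes called as higher), with Rspo1 values of 13.6, 15.4 and 8.55 CPM. With culture as a block Ascl2 (1.48, adjusted p = 0.0293) and Rgmb (1.03, adjusted p = 0.0266) were called too between Rspo2 and Rspo1, as was Prom1 between Rspo3 and Rspo2 (adjusted p = 0.0240, limma). Rspo3 and Rspo1 at 100 ng/ml differed for none of the 10 by this test (0.00523% of all genes called), although all 10 estimates were negative, with a median of -0.82 (all genes -0.14). An unadjusted p under 0.05 (limma) was found for 7 of the 10 and for 4271 of all 19130 genes. With culture as a block 6 were called lower there, namely Smoc2, Slc12a2, Tnfrsf19, Sox9, Rgmb and Msi1 (adjusted p of 0.0123 to 0.0389, limma). A fit of the WT organoids alone called Tnfrsf19 (adjusted p = 0.0458) and Rgmb (adjusted p = 0.0395, limma). Summed over all ligand comparisons in WT, calls over all genes went from 18546 to 31183 with the block and to 20061 with that fit. The share of all genes in this pair alone was not counted under these settings.

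At 5 ng/ml in WT, all 10 markers were lower with Rspo3 than with Rspo2 (32.2% of all genes called as lower), 6 were lower with Rspo3 than with Rspo1 (12.7%), and 7 were higher with Rspo2 than with Rspo1 (16.4%). Slc12a2 illustrates the order, at 58.9, 115 and 77.0 CPM with Rspo3, 253, 269 and 282 CPM with Rspo1 and 448, 663 and 313 CPM with Rspo2. Smoc2 (-0.21 ± 0.29), Rgmb (0.36 ± 0.29) and Msi1 (1.04 ± 0.39) were not called between Rspo2 and Rspo1. Ascl2, Tnfrsf19, Rgmb and Msi1 were not called between Rspo3 and Rspo1, Ascl2 and Tnfrsf19 being at 0.50 CPM or less with both ligands. With culture as a block Msi1 was called in both pairs (adjusted p = 0.00479 and 0.0329, limma).

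In KO organoids at 100 ng/ml no marker was called in any of the 3 pairs, with 0.0105% of all genes called between Rspo2 and Rspo1 and 0% in the other pairs. Unadjusted p (limma) was under 0.05 for 1 (Rspo2 against Rspo1), 1 (Rspo3 against Rspo1) and 3 (Rspo3 against Rspo2) of the 10. Of all 19130 genes, 247, 713 and 677 had such a p in these pairs. All 10 estimates were negative for Rspo3 against Rspo1 (median -0.63) and against Rspo2 (median -0.71), as in WT. At 5 ng/ml, 9 were higher with Rspo2 than with Rspo1, all but Smoc2 (13.6% of all genes called as higher), 6 were lower with Rspo3 than with Rspo1 (13.1% as lower), and all 10 were lower with Rspo3 than with Rspo2 (33.6% as lower). Ascl2 was at 16.0 and 36.3 CPM with Rspo2, 0.40 and 1.45 CPM with Rspo1 and 0.15 and 0.20 CPM with Rspo3 (Rspo3 against Rspo2 -4.42 ± 0.43, adjusted p = 5.64e-08, limma). With culture as a block Prom1 was a further call between Rspo3 and Rspo1 at 5 ng/ml (-0.50, adjusted p = 0.0351, limma). Summed over the ligand comparisons in KO, the block took calls over all genes from 15462 to 22057. Comparisons between ligands share libraries, and their counts are given side by side only.

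Where calls of other lists went with these ligand differences, the crypt-base genes followed the markers. In WT, 17 of 19 were lower with Rspo3 than with Rspo2 at 100 ng/ml, led by Sp5 (-3.57 ± 0.42) and Nkd1 (-3.45 ± 0.28), and 15 of 19 at 5 ng/ml, led by Lgr5 (-3.38 ± 0.49) and Axin2 (-3.20 ± 0.53). In KO at 5 ng/ml, 16 of 19 were higher with Rspo2 than with Rspo1, led by Lgr5 (3.40 ± 0.61) and Axin2 (3.23 ± 0.65). Proliferation genes were lower with Rspo3 than with Rspo2 at 5 ng/ml in 12 of 12 cases in each genotype but in 0 of 12 at 100 ng/ml in WT.

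Levels of different markers were compared per kb of exon. In sorted cells Olfm4 and Slc12a2 held the first and second places in every group, Slc12a2 leading in E16.5 HE (85.4 against 53.4 CPM per kb) and Olfm4 at E18.5 (639 against 190 CPM per kb), and Tnfrsf19 was ninth or last. In organoids Tnfrsf19 was last in all 12 groups, from 0.011 to 14.96 CPM per kb, and Olfm4 moved from the first place (421 CPM per kb in WT at 100 ng/ml of Rspo2) to the seventh (1.25 CPM per kb in WT at 5 ng/ml of Rspo3). WT organoids with 100 ng/ml of Rspo2 had the highest mean CPM for 9 of the 10 markers, Prom1 being highest in KO with 100 ng/ml of Rspo1, and WT with 5 ng/ml of Rspo3 the lowest mean for 7. How far neighbouring groups in these orders differ is given by the tests above.

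For 3 markers the genes with the most similar pattern were sought among 10634 genes with a mean of at least 10 CPM, by the mean absolute difference of the 12 centred group means of log2(CPM + 1). The nearest to Olfm4 were Axin2 (0.341), its antisense neighbour Gm11670 (0.668) and Lgr5 (0.722). The nearest to Ascl2 were Gm11670 (0.258), Sorbs2 (0.272) and Rgcc (0.294), and to Smoc2 Dach1 (0.177), Selenoh (0.188) and Tmem131l (0.193). Gm11670 lies within Axin2 on the opposite strand (chr11:108939310-108942015), so reads of these genes may not have been separated. Of the other markers, Ascl2 took place 5 in nearness to Olfm4 (0.738), whereas Smoc2 took place 285 (1.497).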

How the data were processed

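RNA-seq values were analysed as deposited by the authors, in CPM (counts scaled to a common library total) of 52636 genes, rounded to 0.05 CPM, in 1 table of 15 sorted-cell libraries and 1 of 30 organoid libraries (0 columns belonged to no sample). Per the labels and the study's methods, libraries were made with Ovation SoLo (sorted cells) or after ribosomal RNA depletion (organoids), and the submitters' processing notes name Trimmomatic 0.36, STAR 2.5.3a and HTSeq 0.9.1, with GRCm38 and Ensembl 90. CPM hold no replicate model of their own, so log2(CPM + 1) was tested with limma 3.58.1 (moderated, with a mean trend, R 4.3.3) and Benjamini-Hochberg adjustment over all genes tested. Genes needed 1 CPM in as many libraries as the smaller group. Sorted comparisons used only their own groups, an FDR of 0.1 and a fold of 1.5. Organoids used 1 fit of 12 groups and an FDR of 0.05. Adult duodenum and ileum were averaged per mouse against E18.5.

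The 10 genes and the gene lists were chosen with earlier results of these data known. Of other lists, the 2 genes with the largest log2 fold change among those called were named. Genes with the most similar pattern were named for Olfm4, Ascl2 and Smoc2. The authors' own fold changes and p-values were not used.

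Depth was inferred from the spacing of low values and the method was tested on simulated data, where its error was at most 0.368%. In the 4 E16.5 pools 91.5% to 97.9% of values above 0 came out as whole reads, and edgeR 4.0.16 on these called 351 of 12453 genes and 0 of the 10 markers. No count test was run on the other libraries. Pairing came from litter (correlation of deviations -0.037), mouse (0.344) and culture (0.110 to 0.830). Alternatives were scaling, pseudocount, filters, thresholds, a replicate block, the samples fitted, the genotype source and each library left out.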

Additional observations from a re-analysis of the deposited data

Results flagged for a closer look

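The dose effect of Rspo2 was called different between WT and KO organoids for 4 named genes (limma, KO minus WT, log2 scale). This was a test of the difference itself. The difference was -2.97 ± 0.55 for Ascl2 (adjusted p = 0.0169) and -1.71 ± 0.35 for Sox9 (adjusted p = 0.0281). Beyond the markers it was -3.51 ± 0.78 for Lgr5 (adjusted p = 0.0434) and -3.21 ± 0.67 for Sp5 (adjusted p = 0.0320). Lgr5 and Sp5 had the 2 largest differences among the other crypt-base genes called. Without WT10, without WT30 or in a separate fit, 0 of the 10 markers were called. Without KO2 the difference was -1.91 for Ascl2 and -1.14 for Sox9. Sex and genotype cannot be told apart in these organoids. Groups held 2 or 3 libraries, so no library was tested as an outlier.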

How the results depend on the processing

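No called marker changed direction under any alternative run. Counts of markers called moved as follows. With litter as a replicate block E16.5 KO against HE had 2 in place of 0, with all 15 sorted libraries in 1 fit 2, and with genes of at least 10 CPM on average 1. Adult against E18.5 had 8 in place of 5 at an FDR of 0.05 with no fold limit. Ileum against duodenum had 0 in place of 1 with every gene above 0 or at an FDR of 0.05 with no fold limit, and 2 with all 15 libraries or mouse as a replicate block. KO against WT organoids over 6 conditions had 1 in place of 8 at an FDR of 0.001, 5 with every gene above 0 and 0 in separate fits. Between ligands, an FDR of 0.001 left 16 of 33 calls in WT and 16 of 25 in KO. The difference in dose effect had 0 in place of 2 at an FDR of 0.001 or in a separate fit, 1 with TMM scaling and 9 with culture as a replicate block. Leaving out 1 library or culture gave 0 to 0 (E16.5 KO), 0 to 9 (E18.5), 3 to 6 (adult), 0 to 1 (ileum), 0 to 0 (cKO), 29 to 30 (dose, WT), 16 to 20 (dose, KO), 2 to 9 (KO against WT), 16 to 36 and 19 to 25 (ligands in WT and KO) and 0 to 8 (difference in dose effect). The causes were not tested. The replicate block left dose calls at 30 in WT and 21 in KO, and gave 44 and 26 calls between ligands. For E18.5 against E16.5 and for cKO the samples share only a number, and the replicate block left 8 and 0 calls. TMM moved the median of all genes by over 0.1 in 13 of 32 comparisons. At 5 ng/ml of Rspo1 or Rspo3, Ascl2 and Tnfrsf19 were near the value of a few reads, which limits their folds.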
